A study of Rattus norvegicus with 7 samples.

Results

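Zfp genes are the genes whose array name is Zfp followed by a number, and 342 of the 45598 non-control probes of the array carried such a name. These 342 probes stood for 223 of its 36174 gene names, of which 138 had 1 probe and 85 had more. They were measured in NR8383 cells, an established line of rat alveolar macrophages derived from lung lavage, exposed to zinc oxide nanoparticles (ZnO) at 2 µg/mL for 4 h (3 arrays) or left without particles for 4 h as control (4 arrays). All dishes of both groups were kept in medium without serum during the exposure, and each array was hybridised with Cy3-labelled cRNA of 1 biological replicate. The dose is that of the sample labels. The study's text names a higher one for the same exposure time, and which was applied to these arrays is not settled here. A single cell line without lung epithelium or other immune cells stands here for the alveolar macrophage. Among markers of cell types, 9 of 11 macrophage genes with a probe were well above background on all 7 arrays (Marco and Adgre1 were not). So were 0 of 5 epithelial, 0 of 3 lymphocyte and 2 of 4 fibroblast genes (Col1a2 and Dcn). The same held for 2 of 3 endothelial (Pecam1 and Cdh5) and 1 of 4 neutrophil genes (Mpo). None of the markers compared between the groups passed the test used below, and those too dim to be compared have no value. The arrays averaged all cells of a dish, so a change in the share of cells that express a gene and a change in the RNA per cell cannot be told apart.

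Most Zfp proteins carry C2H2 zinc fingers, short folds in which a pair of cysteines and a pair of histidines hold a zinc ion, so that neighbouring fingers can read DNA. Many of them also have a KRAB domain, which recruits the corepressor Trim28 and, through it, the histone methyltransferase Setdb1 to silence the bound DNA, transposable elements among it. KRAB zinc-finger genes arose by tandem duplication and lie in clusters on the chromosomes. Not every Zfp name belongs to a DNA-binding regulator. Zfp36 is a decay factor of AU-rich mRNAs, Zfp598 a ubiquitin ligase of collided ribosomes, Zfp622 a factor of 60S ribosome maturation, Zfp207 a spindle assembly protein and Zfp451 a SUMO ligase.

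The probes themselves show what was read. The probe of Zfp472, the only member that passed the test below, lay at chr7:13660818-13660877 on the plus strand of the rat build rn4, to which the probe positions given here refer. It ended in a stop codon, and capitals mark the codons from the first to the last histidine of a finger in the frame of that stop.
Zfp472: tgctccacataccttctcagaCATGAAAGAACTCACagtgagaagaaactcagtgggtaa
Other probes read the codons that most C2H2 fingers share. The linker between fingers was searched as codons for threonine, glycine, glutamate, lysine and proline in a row, and the stretch from the second cysteine of a finger as codons for cysteine, glycine, lysine, any residue and phenylalanine. The last base of each codon was free, any frame was allowed, and only the probe strand was read. At least 1 of them was found in 22 of the 342 Zfp probes (6.43%), against 158 of the 45256 other probes (0.349%). The 4 probes that follow carry them in capitals and come from genes whose values are given later.
Zfp14: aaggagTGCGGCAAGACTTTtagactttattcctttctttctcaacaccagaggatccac
Zfp260: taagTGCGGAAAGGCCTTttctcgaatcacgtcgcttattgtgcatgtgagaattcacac
Zfp524: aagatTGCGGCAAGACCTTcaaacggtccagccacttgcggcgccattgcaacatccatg
Zfp846: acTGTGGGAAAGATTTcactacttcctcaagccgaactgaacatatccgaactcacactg
A further 33 Zfp probes (9.65%) held the polyadenylation signal AATAAA, a share close to the 9.03% of other probes. For Zfp14, Zfp260 and Zfp524 the second probe was of this kind, and a window of 30 bases of each, with the signal in capitals, shows that the probes of each gene read different stretches of the transcript.
Zfp14: gcccacggacgtAATAAAtacagaaatgcc
Zfp260: agagaggttccaAATAAAtggaacaaatcg
Zfp524: atgggctgtggaAATAAAtccctgcctact
The longest stretch that the Zfp472 probe shared with a probe of another name was 19 of its 60 bases. Whole transcripts of other genes were not compared, so this does not show that the probe reads only Zfp472.

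The Zfp genes were widely transcribed in these cells. In the ZnO group 205 of the 342 probes (59.9%) were well above background on every ZnO array, and in the control group 198 (57.9%) were so on every control array, against 43% and 42.5% of all probes in the same groups. Altogether 196 Zfp probes were well above background on all 7 arrays, 99 on none and 47 on some, and no probe had every array of 1 group well above background and none of the other. For 53 gene names no probe was well above background on any array. Among these were Zfp36, Zfp57, which maintains imprints, and Zfp42, a marker of pluripotent cells. Values were compared for a probe only if it was well above background on every ZnO array or on every control array, which held for 207 Zfp probes (60.5%) of 149 gene names, against 43.9% of all probes.

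A value is the log2 of the processed signal minus the log2 of the 75th percentile of that array, so 0 stands for the 75th percentile. Differences are ZnO minus control. After ZnO 1 of the 207 Zfp probes rose and 0 fell at an adjusted p under 0.05 (limma, Benjamini-Hochberg over 20037 probes), while 10 of all probes (0.0499%) rose and 0 fell. At an adjusted p under 0.001 with a fold change over 1.5, 0 Zfp probes and 4 of all probes (0.02%) were called. Before adjustment, 21 Zfp probes had a p under 0.05 (10.1%, against 5.92% of all probes), 15 of them higher (7.25%, against 3.06%) and 6 lower after ZnO (2.9%, against 2.86%). The groups did not overlap for 25 Zfp probes (12.1%, against 7.39% of all probes). All ZnO arrays lay above all control arrays for 20 of them (9.66%, against 3.79%) and below them for 5 (2.42%, against 3.59%). The differences were small. A fold change over 1.5 was measured for 1 Zfp probe in the higher direction (0.649% of all probes) and 1 in the lower (0.414%), 0.966% of the Zfp probes against 1.06% of all probes.

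The log2 fold changes of the 207 probes ran from -0.80 to 0.70, with a median of 0.04 and quartiles of -0.05 and 0.14. All tested probes had a median of -0.01 and quartiles of -0.09 and 0.07. Values above 0 were found for 130 Zfp probes (62.8%), against 47.9% of all probes. The median SD between arrays for a Zfp probe was 0.14 in the ZnO group and 0.13 in the control group. The excess of higher over lower values depended on how the arrays were centred. Centred on the median of the array, at an unadjusted p under 0.05 there were 4 Zfp probes higher and 7 lower. Together these were 5.31% of the Zfp probes, against 5.17% of all probes. At this centring 7 lay above and 6 below all control arrays (3.38% and 2.9%, against 1.44% and 4.82% of all probes). Centred on the 350 spike-in spots, 160 Zfp probes lay above 0, and the median of all tested probes was 0.06. No Zfp probe then had an unadjusted p under 0.05 in either direction, against 0.255% of all probes. A change of centring shifts all probes of an array alike, so the distance between the Zfp median and the median of all tested probes, 0.04, is the same by construction.

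**Figure D1:**
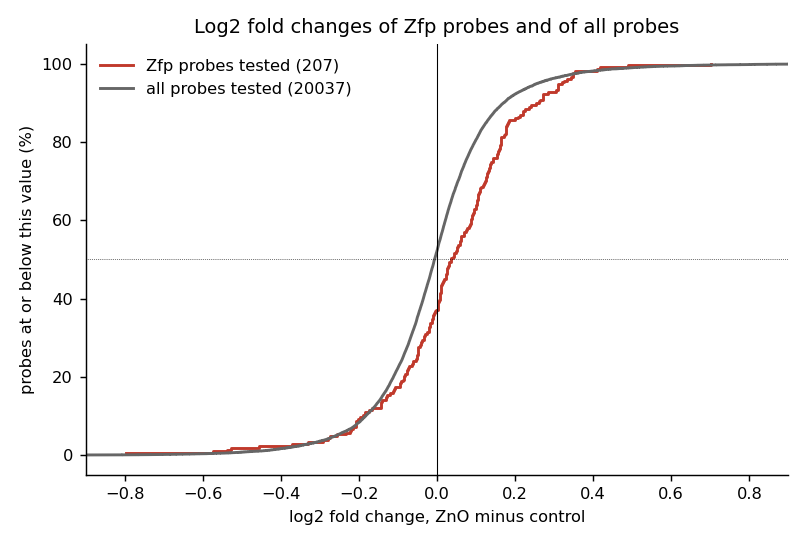
Cumulative share of probes (%) at or below each log2 fold change, ZnO minus control, for the 207 tested Zfp probes (red) and all 20037 tested probes (grey); the dotted line marks the median. The red curve lies to the right of the grey one from about its lower quartile (-0.05, against -0.09) to its upper quartile (0.14, against 0.07), and the curves meet at both ends.

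Zfp472, known as Krim1 in rat, where it was described as a KRAB protein that interacts with Myc, was the member that rose. Its values were -2.87, -2.75 and -2.83 on the ZnO arrays, against -3.46, -3.61, -3.55 and -3.44 on the control arrays. All ZnO arrays were high and the groups were far apart relative to the spread within either. The log2 fold change was 0.70 (SE 0.07, 95% interval 0.53 to 0.87, limma adjusted p = 0.0387). This call was near the threshold: it passed under 3 of the 17 alternatives tried, failed when any single array was left out (adjusted p = 0.105 to 0.195), and its adjusted p ranged from 0.0112 to 1 over all of them, while the log2 fold change stayed between 0.47 and 0.77.

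Zfp966 had the largest difference in the other direction. The probe, at chr3:145123703-145123762, had values of -3.09, -3.44 and -3.24 on the ZnO arrays, against -2.50, -2.40, -2.48 and -2.46 on the control arrays. Every ZnO array was low, and the control arrays lay close together. The log2 fold change was -0.80 (SE 0.09, 95% interval -1.01 to -0.58), and it did not pass the test (limma adjusted p = 0.0694). It passed under 5 of the 17 alternatives, among them centring on the median (limma adjusted p = 0.0315). With median centring, with a trended robust variance and without ZnO replicate 1, 0 Zfp probes rose and 1 fell. Of all tested probes, 9, 14 and 14 were called under these settings, against 10 in the main fit. The direction of the call among Zfp genes thus depended on the processing. The accession behind the name was not found in the current annotation, and another accession listed for this probe now belongs to Zfp341, so the identity of the transcript is uncertain. The first 30 bases of the probe show what was read.
Zfp966: tatgttgaaccattactaaaacacttccca

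Of the other Zfp probes lower after ZnO, that of Zfp143 came next. Zfp143 is an activator that binds many promoters, including those of small nuclear RNA genes, and takes part in chromatin looping. It gave -1.505, -1.59 and -1.80 on the ZnO arrays, against -1.03, -1.04, -1.005 and -1.16 on the control arrays, with no overlap (log2 fold change -0.57, SE 0.09, limma adjusted p = 0.283). A probe of Zfp496, a KRAB and SCAN zinc-finger protein, gave -4.32, -4.33 and -4.59 on the ZnO arrays, against -3.91, -4.08, -3.79 and -3.78 on the control arrays. Its groups did not overlap either (log2 fold change -0.53, adjusted p = 0.418). The remaining probes among the 8 with the smallest p in this direction were those of Zfp438 (-0.37), Zfp846 (-0.27), Zfp14 (-0.26), Zfp579 (-0.22) and Zfp26 (-0.21), all with an adjusted p over 0.7.

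In the higher direction, the probes after Zfp472 with the smallest p belonged to Zfp956 (log2 fold change 0.24), Zfp35 (0.41), Zfp958 (0.42), Zfp629 (0.26), Zfp710 (0.33), Zfp192 (0.27) and Zfp622 (0.27). None passed the test, with limma adjusted p of 0.605 to 0.748. Zfp956 had -0.68, -0.62 and -0.68 on the ZnO arrays, against -0.91, -0.89, -0.92 and -0.89 on the control arrays with little spread in either group. Zfp35 had -3.10, -3.11 and -2.96 on the ZnO arrays, against -3.23, -3.53, -3.47 and -3.62 on the control arrays. Zfp622, the ribosome maturation factor, had -1.23, -1.02 and -0.97 on the ZnO arrays, against -1.47, -1.32, -1.33 and -1.27 on the control arrays, so that its lowest ZnO array came close to its highest control array. Zfp192, now named Zkscan8, was above all control arrays by a narrow margin.

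**Figure D2:**
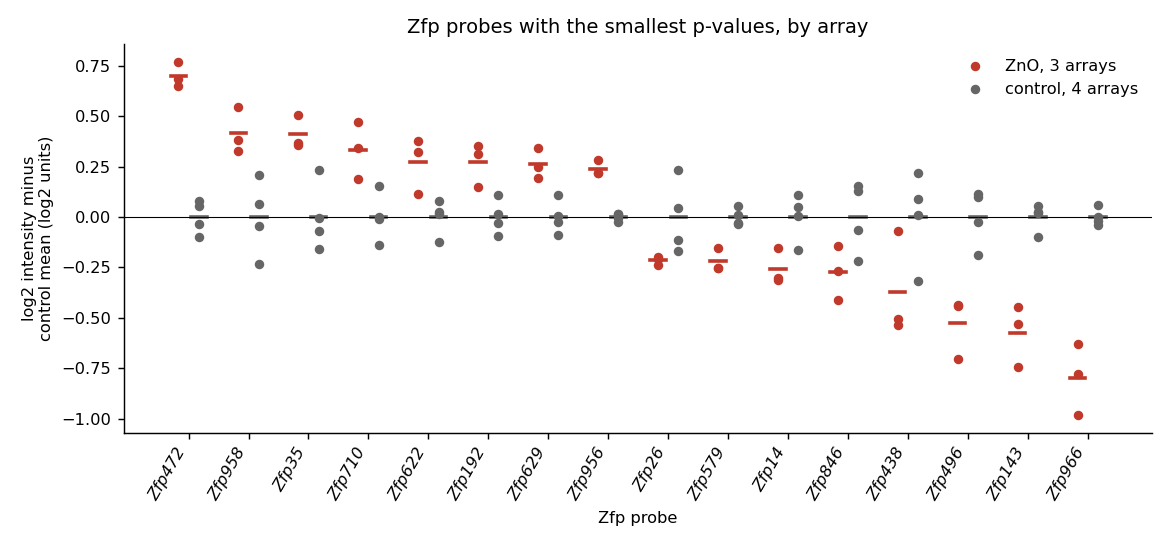
Log2 intensity of each array minus the control mean of the probe (log2 units) for the 8 Zfp probes with the smallest p in each direction, ZnO (red, 3 arrays) left of control (grey, 4 arrays), with a bar at each mean. Zfp472 and Zfp966 stand farthest from their controls at 0.70 and -0.80, and for Zfp846, Zfp438 and Zfp14 the groups overlap.

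Among members with well-known roles, the groups overlapped for most probes. They did not overlap for a probe each of Zfp143 and Zfp622, given above, and of Zfp384, Zfp260 and Zfp131. Such a separation was found for 7.39% of all tested probes. Zfp384, which binds A-rich sequence, had 0.58, 0.56 and 0.52 on the ZnO arrays, against 0.39, 0.42, 0.38 and 0.36 on the control arrays, a small but clean separation (log2 fold change 0.16, limma adjusted p = 0.807). Zfp260, a transcriptional activator in heart cells, had -2.44, -2.34 and -2.38 on the ZnO arrays, against -2.58, -2.57, -2.57 and -2.56 on the control arrays for its AATAAA probe (0.18). The finger probe of the same gene gave 0.13 with overlapping groups. Zfp131, a BTB zinc-finger protein, lay above all control arrays at 0.13. Zfp91, a ubiquitin ligase of noncanonical NF-kB signalling, had 1.73, 1.89 and 1.91 on the ZnO arrays, against 1.90, 1.96, 1.73 and 1.76 on the control arrays, with full overlap (0.0049, 95% interval -0.20 to 0.21). Zfp281, a regulator of pluripotency genes, gave 0.0077 and Zfp292 -0.01. The 3 tested probes of Zfp207 lay between -0.08 and 0.01, the 6 of Zfp148, which binds GC-rich promoters, between -0.11 and 0.18, the 2 of Zfp217 at -0.05 and 0.09, those of Zfp451 at 0.10 and -0.03, and those of Zfp106, an RNA-binding protein, at 0.18 and 0.05. Zfp637, Zfp511 and Zfp358 are named for another reason. The study's supplement lists them, with Zfp524 and Zfp956, as overexpressed after ZnO at the higher dose. Here Zfp637 gave 0.18 (95% interval -0.01 to 0.36, limma adjusted p = 0.855), Zfp511 0.0097 and Zfp358 0.0029. No probe of these genes passed the test. Zfp36 and Zfp318 were not well above background on any array, so they have no comparison.

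Different probes of a gene did not always move together. Of the 44 gene names with more than 1 tested probe, 19 had probes of opposite sign, the median difference between the highest and lowest probe was 0.14 and the largest 0.64. In 3 genes the probes differed by more than 0.5. In Zfp496 the other probe gave -0.34, -0.36 and -0.40 on the ZnO arrays, against -0.40, -0.49, -0.50 and -0.52 on the control arrays (log2 fold change 0.11), opposite to the probe given above. In Zfp14 the AATAAA probe had -4.22, -4.38 and -4.37 on the ZnO arrays, against -4.06, -4.23, -3.95 and -4.02 on the control arrays (-0.26). Its finger probe had -4.62, -4.52 and -5.06 on the ZnO arrays, against -5.41, -5.07, -4.98 and -4.88 on the control arrays (0.35), so that the sequences printed above ran in opposite directions, with groups that overlap in both. Zfp958 had tested probes at 0.42, 0.27 and -0.17, the last with a standard error of 0.43. For Zfp956 the second probe, at -0.19, had groups that overlap, and for Zfp524 the finger probe gave -0.18 and the AATAAA probe -0.01. The other tested probes of Zfp710 (0.02), Zfp26 (-0.04) and Zfp846 (-0.14) were nearer 0 than the probes of these genes listed above. None of these probes passed the test, and a difference between probes of a gene was not tested.

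**Figure D3:**
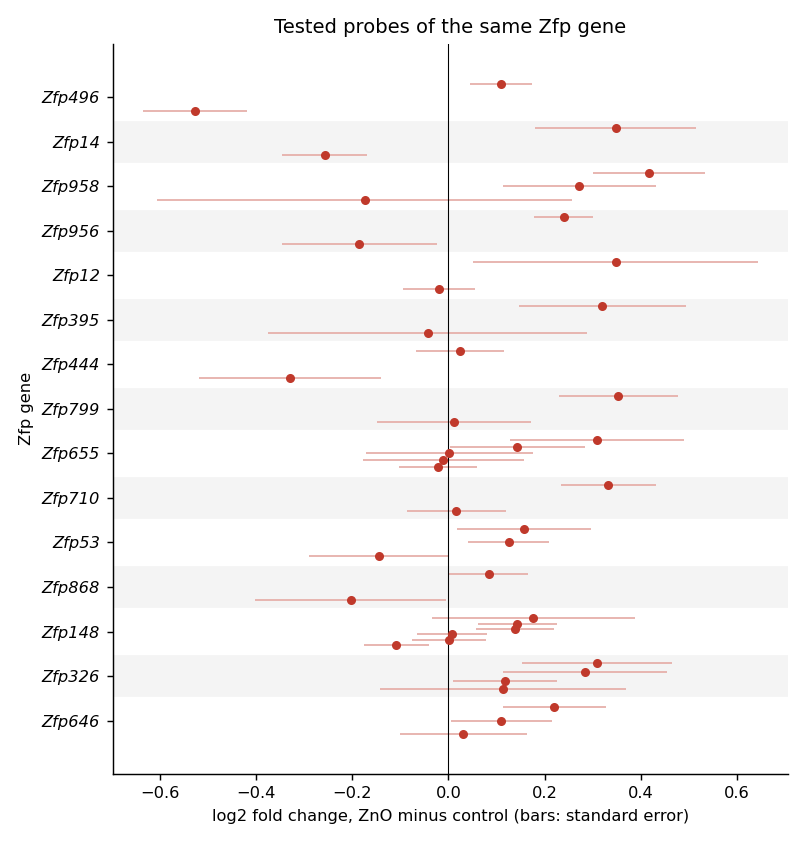
Log2 fold change (ZnO minus control, bars for the standard error) of every tested probe of the 15 Zfp genes whose probes differ most, each point a probe. The probes of Zfp496 and Zfp14 lie on opposite sides of 0 (-0.53 and 0.11, -0.26 and 0.35) and their bars do not meet.

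By kind of probe, the 12 tested probes with finger codons had a median log2 fold change of 0.09, with 1 above and 0 below all control arrays and 1 at an unadjusted p under 0.05. The 20 with AATAAA had a median of 0.0087, with 4 above and 0 below all control arrays and 5 at an unadjusted p under 0.05. The other 175 had a median of 0.04, with 15 above and 5 below and 15 at such a p. Over all tested probes these shares were 3.79%, 3.59% and 5.92%. These classes were set after the values had been seen and carry no test. The median GC content was 41.7% in Zfp probes and 43.3% in all tested probes.

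The positions of the probes place 218 of the gene names, 55 of them on chromosome 1 and 20 on chromosome 10. Joining genes less than 500000 bases apart gave 16 clusters of at least 3 names, which hold 73 names in all. In the clusters 55 names had a tested probe, and by the brightest probe of each gene 11 lay above and 2 below all control arrays (median 0.05). Outside the clusters 94 names had one, with 6 above and 2 below (median 0.02). Of all tested probes 3.79% lay above and 3.59% below. A log2 fold change above 0 was found for 34 of the 55 names in clusters and 59 of the 94 outside, against 47.9% of all tested probes. Zfp472 lay in a cluster on chromosome 7, 182351 bases from Zfp799, whose brightest probe was also above all control arrays (0.35, limma adjusted p = 0.785), while the other probe of Zfp799 gave 0.01 with groups that overlap. In the same cluster Zfp763 (-0.01) and Zfp870 (-0.05) showed no such difference, and Zfp563 was not above background. By probe start, Zfp870 lies between Zfp799 and Zfp472. By the brightest probe, all tested genes were above 0 in the cluster of Zfp869, Zfp964 and Zfp868 on chromosome 16. The same held on chromosome 1 for Zfp689, Zfp629, Zfp668 and Zfp646, for Zfp51, Zfp53 and Zfp52, and for Zfp418, Zfp978 and Zfp772. Other tested probes of Zfp868 (-0.20), Zfp668 (-0.09) and Zfp53 (-0.14) lay below 0. All were below 0 by the brightest probe in the cluster of Zfp865, Zfp524, Zfp579 and Zfp628 on chromosome 1. The clusters were drawn after the values had been seen, and none was tested.

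**Figure D4:**
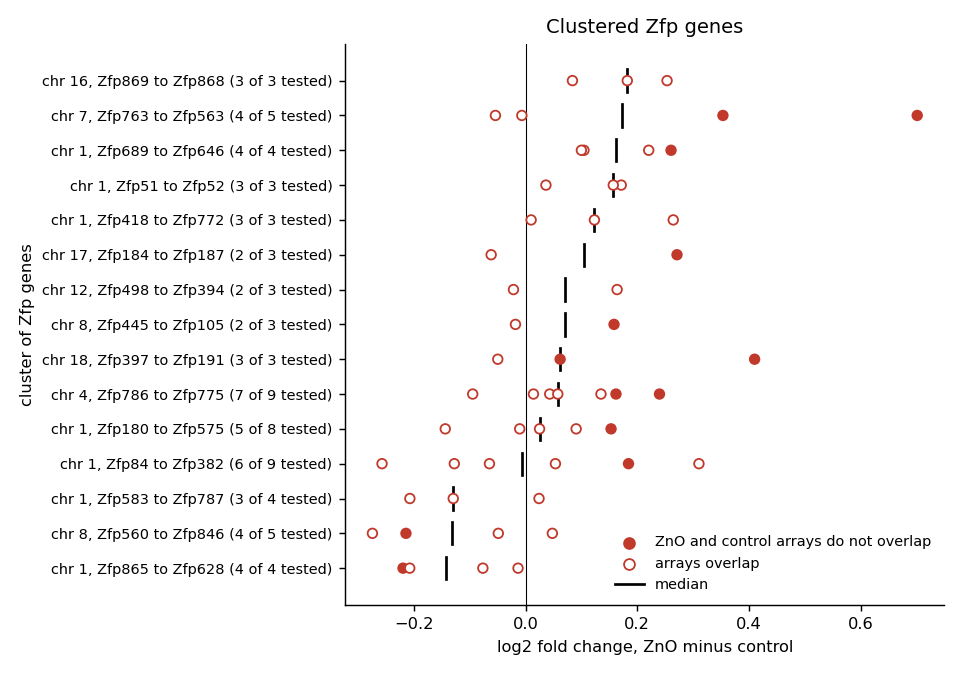
Log2 fold change (ZnO minus control) of the brightest tested probe of each Zfp gene in 15 clusters, sorted by the cluster median (black bar); filled points are genes whose ZnO and control arrays do not overlap. Zfp472 (0.70) and Zfp799 (0.35) are the filled points of the chromosome 7 cluster, and 3 of the clusters at the bottom have medians below -0.1.

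Zinc is sensed through the factor Mtf1, which binds metal response elements and turns on metallothionein genes and the zinc exporter Slc30a1. The cores TGCACNC and TGCGCNC were searched on both strands of promoter windows, 250 bases before to 50 after each start, in RefSeq for GRCr8. At least 1 core was found in 72 of 230 Zfp promoters (31.3%), against 24.2% of all 33469. It was found in 5 of the 14 windows found for genes with a probe above all control arrays, none with more than 1, where 2 of the 5 were overlapping windows of Zfp384, and in 1 of 4 windows for genes with a probe below. The promoter of Zfp472 (chr7:12724877-12725176, plus strand) held 0 cores, that of Zfp260 (chr1:94469611-94469910, plus strand) held 1 and that of Mt2A (chr19:10838659-10838958, minus strand), a metallothionein shown for comparison, held 4, which the capitals mark.
Zfp472: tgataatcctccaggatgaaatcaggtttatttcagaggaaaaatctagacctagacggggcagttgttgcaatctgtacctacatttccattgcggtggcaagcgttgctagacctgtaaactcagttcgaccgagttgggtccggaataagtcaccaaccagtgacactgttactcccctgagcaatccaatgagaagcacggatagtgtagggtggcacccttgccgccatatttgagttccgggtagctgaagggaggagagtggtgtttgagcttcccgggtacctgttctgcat
Zfp260: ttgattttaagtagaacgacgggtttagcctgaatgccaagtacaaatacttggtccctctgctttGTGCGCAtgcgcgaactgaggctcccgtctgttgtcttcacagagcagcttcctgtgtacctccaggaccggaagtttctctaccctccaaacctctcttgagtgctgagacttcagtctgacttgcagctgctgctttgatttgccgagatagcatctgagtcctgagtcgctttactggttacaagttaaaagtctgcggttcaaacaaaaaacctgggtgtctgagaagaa
Mt2A: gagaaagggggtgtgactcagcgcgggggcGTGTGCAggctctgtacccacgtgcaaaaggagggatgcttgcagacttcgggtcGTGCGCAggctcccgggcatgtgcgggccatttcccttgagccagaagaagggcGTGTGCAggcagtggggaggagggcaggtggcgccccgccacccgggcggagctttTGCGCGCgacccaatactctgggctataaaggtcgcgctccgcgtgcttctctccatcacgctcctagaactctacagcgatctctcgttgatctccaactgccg
In the same fit Mt2A rose by 5.83, Mt1a by 3.40 and Slc30a1 by 1.37 on the log2 scale, while the 3 probes of Mtf1 lay between -0.18 and 0.00. A match of these letters is not a binding site, and its absence in this window says nothing about binding.

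The other zinc-finger families held no called probe. Their counts are set beside all tested probes, of which 3.06% had an unadjusted p under 0.05 in the higher and 2.86% in the lower direction, and 3.79% lay above and 3.59% below all control arrays. Zbtb names belong mostly to BTB zinc-finger repressors. Of 40 tested probes with such a name, 4 were higher and 0 lower at such a p, and 4 lay above and 2 below all control arrays, with a median of -0.02. Zbtb8os, counted among those higher (0.21), is named for its place opposite a Zbtb gene and is not itself a BTB zinc-finger protein. The 11 tested probes of Zscan and Zkscan genes, whose SCAN domain mediates pairing, had a median of 0.20. At such a p 2 were higher and 0 lower, and 4 lay above and 0 below all control arrays, Zscan21 at 0.29 and Zkscan1 at 0.23 among them. The 20 of Klf and Sp genes had a median of -0.08. At such a p 0 were higher and 1 lower, and 0 lay above and 4 below all control arrays, namely Klf7 (-0.31), Sp2 (-0.25) and both probes of Sp1 (-0.18 and -0.17). Of the smaller lists, Znf names had 4 tested probes (median 0.26), Egr names 3 (0.23) and Zfp36l1 with Zfp36l2 5 (-0.07). Values above 0 were found for 4, 3 and 2 of them, against 47.9% of all tested probes. No probe of these lists had an unadjusted p under 0.05, and their groups overlapped throughout. In the machinery that KRAB proteins recruit, the groups overlapped for all 18 tested probes, and none had an unadjusted p under 0.05. Their median was 0.02, with values of -0.33 for Atf7ip, a partner of Setdb1, -0.15 for Morc2, 0.12 for Hdac1, 0.01 for Trim28, and -0.05 and 0.10 for Setdb1.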

How the data were processed

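Per the file headers, Cy3 spot intensities were extracted by the authors with Agilent Feature Extraction 11.0.1.1, and the deposited processed signal is background-subtracted and detrended within each array, without scaling between arrays. The deposited value table equals the median signal of each spot and served as an alternative. The 75th percentile of the processed signal was 980 to 1603 in the ZnO arrays and 958 to 1489 in the control arrays, and 0 spots were saturated. The number of arrays limits the precision.

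The log2 processed signal was centred on the 75th percentile of each array, outlier spots were left out, and spots of a probe were averaged. Probes well above background on every ZnO array or on every control array were compared with limma 3.58.1 in R 4.3.3, Benjamini-Hochberg adjusted, after a check on simulated data. The study's methods give percentile normalization, Benjamini-Hochberg adjustment and the thresholds of p under 0.001 and a fold change over 1.5 that were also applied here, but do not name the statistic. The members, gene lists and named genes were chosen with earlier results of these data known: the genes singled out before, the 8 smallest p in each direction, members with textbook roles, and genes whose probes differ by over 0.5. The genes singled out before include those named in the study's supplement. Gene names are those of the array. RefSeq matched 220 of the 342 probes by accession and gives another symbol for 12 names. Probe clusters, probe classes and the printed sequences were chosen after values were seen. Finger counts from proteins were not analysed here.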

Additional observations from a re-analysis of the deposited data

How the results depend on the processing

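Each result was recomputed under 17 alternatives, and the counts also with the probes of a gene averaged. In the main fit 1 Zfp probe and 10 of all 20037 tested probes were called. The Zfp number became 0 with no filter on dim probes, the deposited table and spike-in centring (5, 7 and 5 of all probes). So it did with the replicate block and normexp background correction (4 and 7 of all probes). It became 2 with quantile normalization and array weights (11 and 13 of all probes), and 0 to 1 without single arrays (7 to 14). With median centring, with trended robust variance and without ZnO replicate 1 it stayed at 1 (9, 14 and 14 of all probes). There the Zfp probe called was lower after ZnO. The 21 at an unadjusted p under 0.05 became 11 with median centring, 0 with spike-in centring and 10 with normexp or the deposited table. There were 43 with array weights and 17 to 32 without single arrays (32 without ZnO replicate 1). The Zfp share, 10.1% against 5.92% of all tested probes, became 5.31% against 5.17% with median centring and 0% against 0.255% with spike-in centring. It was 4.83% with normexp and with the deposited table, against 3.11% and 3.56% of all probes. With array weights it was 20.8% against 11.8%. Without single arrays it was 8.13% to 15%, against 4.38% to 8.97% of all probes (15% against 8.97% without ZnO replicate 1). The 2 with a fold change over 1.5 became 1 with normexp and with the deposited table and 16 with no filter. There were 6 with the replicate block and 3 to 8 without single arrays. The shares of all probes over this fold change under the alternatives are not given here. The 25 whose groups do not overlap became 13 with median centring, 0 with spike-in centring, 14 with normexp and 15 with the deposited table. Without single arrays there were 30 to 50 (50 without ZnO replicate 1). Leaving out an array can only keep or raise this number by construction, since fewer arrays have to lie apart. With normexp 5.8% of Zfp probes lay above all control arrays, against 2.9% of all probes, and 0.966% below, against 2.34%. With the deposited table these shares were 5.31% against 3.17% above and 1.93% against 2.5% below. Without single arrays they were 10.6% to 15.8% against 5.21% to 9.76% above, and 2.9% to 7.98% against 5.36% to 12.3% below. Without ZnO replicate 1 they were 15.5% against 9.76% above and 7.98% against 12.3% below. With spike-in centring 0.0799% of all probes lay above and 0.0349% below. Apart from this effect of fewer arrays, the cause of these shifts was not tested. The Zfp median lay above that of all tested probes by 0.01 to 0.06 throughout, a distance that the choice of centring cannot change.

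With the replicate number as a block, 0 Zfp probes and 4 of all tested probes were called. The deviations of same-numbered arrays had correlations of -0.09, 0.21 and -0.23, within the range of differently numbered arrays (-0.40 to 0.33). These few correlations cannot settle whether the numbers pair the arrays.

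Of 48 tested probes of named genes, 31 kept their sign under every alternative and 17, none with a log2 fold change over 0.18 in size, changed it under at least 1. Values that changed sign follow, with a gene repeated for each of its probes. Median centring gave Zfp207 -0.029 and -0.036, Zfp91 -0.033, Zfp281 -0.030, Zfp358 -0.035, Zfp148 -0.030 and -0.035 and Zfp511 -0.028. Array weights gave Zfp207 -0.0075 and -0.0094, Zfp358 -0.12, Zfp148 -0.0021 and -0.023, Zfp260 -0.031, Zfp292 0.078 and Zfp217 -0.029. The deposited table gave Zfp217 0.018, Zfp207 -0.0065, Zfp148 -0.033 and Zfp511 -0.021. Normexp gave Zfp217 0.017, Zfp281 -0.00024, Zfp358 -0.016, Zfp207 -0.012, Zfp148 -0.023 and Zfp511 -0.015. Quantile normalization gave Zfp207 -0.014 and Zfp91 -0.017. Spike-in centring gave Zfp217 0.019, Zfp292 0.056, Zfp524 0.056 and Zfp451 0.044. The replicate block gave Zfp207 -0.023, Zfp91 -0.021, Zfp281 -0.0013, Zfp958 0.034, Zfp148 -0.017 and -0.013 and Zfp511 -0.014. Without single arrays the ranges were -0.019 to 0.14 for Zfp106, -0.031 to 0.046, -0.041 to 0.047 and -0.017 to 0.28 for Zfp148, -0.023 to 0.037 and -0.047 to 0.044 for Zfp207, -0.12 to 0.043 and -0.17 to 0.22 for Zfp217, -0.067 to 0.25 for Zfp260, -0.052 to 0.080 for Zfp281, -0.10 to 0.055 for Zfp292, -0.13 to 0.17 for Zfp358, -0.11 to 0.065 for Zfp451, -0.014 to 0.026 for Zfp511, -0.066 to 0.033 for Zfp524, -0.030 to 0.061 for Zfp91 and -0.61 to 0.099 for Zfp958.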
